A study of Homo sapiens with 15 samples.

Results

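The TOX family of high-mobility-group factors, TOX, TOX2, TOX3 and TOX4, was followed through 5 sublines of VCaP, an established prostate cancer cell line. The 4 genes were matched by symbol among the 58381 genes counted, and they were chosen by the measured counts of TOX, which were higher in every later subline than in VCaP-T. TOX2, TOX3 and TOX4 came in as its family, not for their values. The levels of TOX against VCaP-T are therefore given as a description, without a test, while its differences among the later sublines and all differences of TOX2, TOX3 and TOX4 were tested. All 4 genes passed the filter on low counts. TOX passed it through the later sublines, since it had 7 to 18 counts per library in VCaP-T.

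There were 15 libraries of bulk RNA, 3 biological replicates per subline. All sublines grew in RPMI 1640 medium with charcoal-stripped serum and began as VCaP cells kept for 7 months in 10 nM testosterone, which gave the androgen-dependent VCaP-T. VCaP-CT is VCaP-T after 10 months in 0.1 nM testosterone, and grows at that low level. VCaP-CT-ER is VCaP-CT made resistant to 10 µM enzalutamide (ENZ), an inhibitor of androgen signaling. VCaP-CT-BR is VCaP-CT kept in bicalutamide, an older inhibitor of the same pathway, and VCaP-CT-BR-ER went on from bicalutamide resistance to ENZ resistance. The sample labels list 10 nM testosterone for the later stage as well, and for VCaP-CT-BR they also name ENZ. A single derivation is described for each subline, so treatment, time in culture and derivation cannot be told apart, and p-values measure the spread between libraries of the same derivation.

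TOX proteins share a single HMG box, a domain that binds and bends DNA according to its shape more than its sequence. TOX is best known from lymphocytes, where calcineurin and NFAT signaling induces it during T cell development and in T cell exhaustion. TOX2 is known from natural killer and follicular helper T cells, TOX3 from luminal breast epithelium and from calcium-dependent transcription in neurons, and TOX4 as a widely expressed subunit of the PTW/PP1 phosphatase complex.

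Library totals lay between 33665716 and 46935279 counts, and every pair of libraries of a subline correlated better, at 0.9913 or above, than any pair from different sublines, at 0.9802 or below (Pearson's r of log2 values across genes, which are not independent replicates). The prostate luminal markers were all detected, with a summed level of 22274 to 23078 CPM (counts scaled to a common library size by TMM) in VCaP-T and 6217 to 12870 CPM in the later sublines. In the mean of the later sublines against VCaP-T, 2 of 9 were higher and 6 lower, where 36.1% of all genes tested were called higher and 36.4% lower, the background for all marker and gene lists in that contrast. KLK3, which encodes the androgen-regulated prostate-specific antigen, had 3560 ± 48.9 CPM (SD, n = 3) in VCaP-T, and VCaP-CT was at 33.2 ± 1.21, VCaP-CT-ER at 521 ± 18.8, VCaP-CT-BR at 14.1 ± 0.538 and VCaP-CT-BR-ER at 40.0 ± 1.94. T cell markers, included because TOX is a T cell factor, summed to at most 2.91 CPM in any library, and CD3D, CD3E and CD2 were at 0 counts in all libraries. Of the 10 markers 4 were tested, and in the same contrast, with the same background, 3 were lower (CD8A, CD8B and LCK) and CD4 was higher. CD8B passed the filter on low counts through VCaP-T alone, with 18 to 32 counts per library there and 0 to 7 later. CD4 passed it through the later sublines alone, so neither call is independent of the filter. CD4 was, like TOX, lowest in VCaP-T and highest in VCaP-CT-ER. It had 1 to 4 counts per library in VCaP-T, 5 to 14 in VCaP-CT and 7 to 16 in VCaP-CT-BR. There were 10 to 18 after both inhibitors and 21 to 33 in VCaP-CT-ER. Scaled for depth, the mean of CD4 was 0.291 CPM in VCaP-CT and 0.280 CPM in VCaP-CT-BR, between which TOX rose. The part of CD4 in the result for TOX was not tested. In bulk RNA, fewer cells of a type and less RNA per cell cannot be told apart. Neuroendocrine markers summed to 329 to 342 CPM in VCaP-T and 67.4 to 105 CPM in the later sublines, and in that contrast 1 (ENO2) was higher and 5 lower of 6 tested. In VCaP-CT-ER against VCaP-T, where 69.0% of all genes were called, 2 were higher and 4 lower, the other higher one being NCAM1, with 6.99 CPM for VCaP-T and 29.1 for VCaP-CT-ER.

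TOX lies on the minus strand of chromosome 8, from 58805418 to 59119208 of GRCh38 in the counting annotation (ENSG00000198846.5), with 4131 exonic bases in 9 blocks. It had 8, 7 and 18 counts in the 3 VCaP-T libraries, which is 0.220, 0.191 and 0.424 CPM. It had 95, 82 and 93 counts in VCaP-CT, or 2.87, 2.34 and 2.60 CPM. TOX was thus close to silent in VCaP-T and present in every library of the low-testosterone subline.

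The level was higher again in the antiandrogen sublines. In VCaP-CT-ER the libraries had 484, 455 and 461 counts of TOX, or 10.0, 9.50 and 11.5 CPM, the highest of the series. VCaP-CT-BR had 3.60, 3.48 and 3.67 CPM of TOX, and VCaP-CT-BR-ER had 5.76, 5.69 and 5.30 CPM. By mean level the order was VCaP-T at 0.278 ± 0.127 CPM, VCaP-CT at 2.60 ± 0.266, VCaP-CT-BR at 3.58 ± 0.0958, VCaP-CT-BR-ER at 5.58 ± 0.250 and VCaP-CT-ER at 10.3 ± 1.01. No neighbours in this order overlapped.

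**Figure D1:**
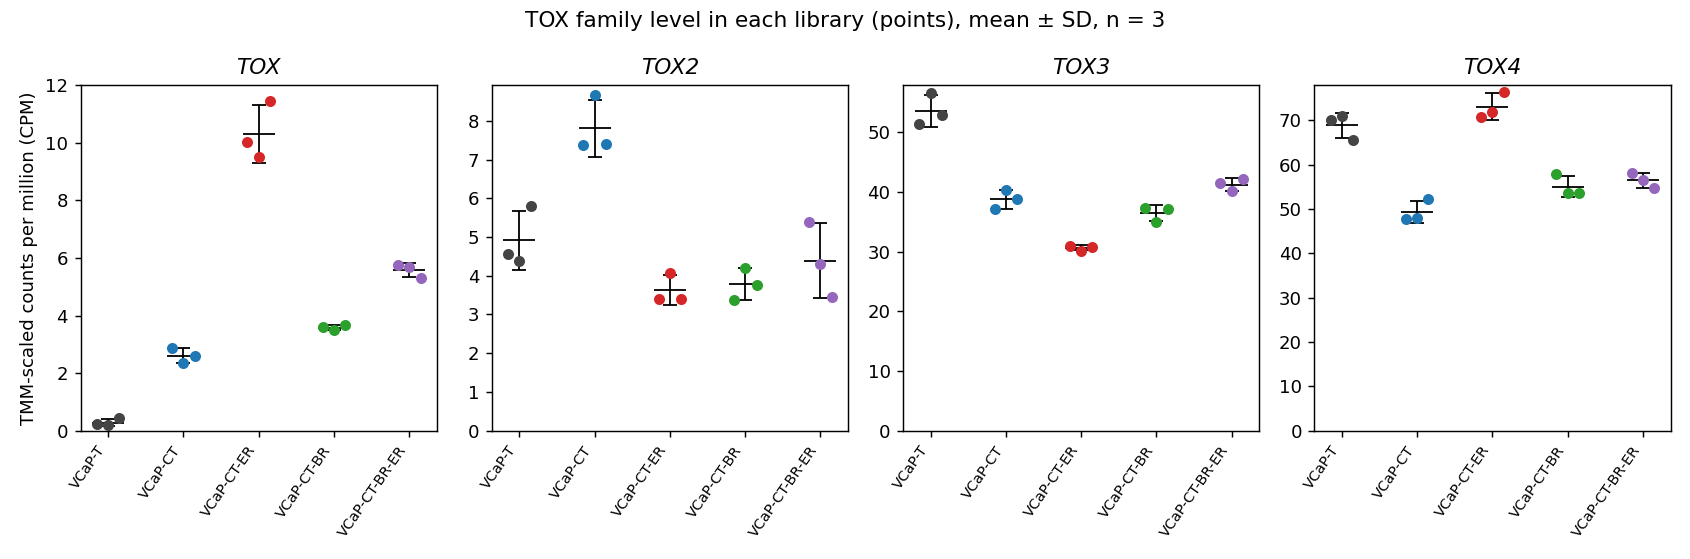
TMM-scaled CPM of each TOX family gene in each library (points) with the mean and SD of the 3 libraries of a subline (bars), on linear axes that start at 0 and differ between genes. TOX is near 0 in VCaP-T and highest in VCaP-CT-ER, TOX2 is highest in VCaP-CT, TOX3 is highest in VCaP-T and lowest in VCaP-CT-ER, and TOX4 is lowest in VCaP-CT.

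Against VCaP-T, the fitted change of TOX was 9.02-fold for VCaP-CT, 12.5-fold for VCaP-CT-BR, 19.4-fold for VCaP-CT-BR-ER and 35.8-fold for VCaP-CT-ER. These contrasts share the VCaP-T libraries and follow from the choice of the gene. For the mean of the later sublines against VCaP-T, the log2 change of TOX was 4.06, at rank 128 from the top of the 19621 genes tested.

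The levels of the later sublines entered the choice of TOX, but the differences among them did not. TOX differed in all 6 pairs of later sublines. From VCaP-CT to VCaP-CT-ER it rose 3.97-fold (log2 fold change 1.99 ± 0.118 SE, adjusted p = 4.76e-12, edgeR's quasi-likelihood test with Benjamini-Hochberg adjustment over all genes, as for every adjusted p here). In that comparison 60.9% of all tested genes were called in either direction, and TOX ranked 620 from the top. The step from VCaP-CT to VCaP-CT-BR was smaller, with a log2 fold change of 0.46 ± 0.132 (adjusted p = 0.00554), where 53.2% of genes were called. When VCaP-CT-BR became VCaP-CT-BR-ER the log2 fold change of TOX was 0.64 ± 0.117 (adjusted p = 0.000143), with 42.9% of genes called.

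The doubly treated subline did not reach the level of VCaP-CT-ER. TOX was lower in VCaP-CT-BR-ER than in VCaP-CT-ER by 0.88 ± 0.104 on the log2 scale (log2 fold change -0.88, adjusted p = 4.96e-07, 45.9% of genes called). It was 2.15-fold higher in VCaP-CT-BR-ER than in VCaP-CT (adjusted p = 2.04e-07, 52.5% called) and 2.87-fold higher in VCaP-CT-ER than in VCaP-CT-BR (adjusted p = 1.71e-10, 55.9% called). The change of TOX along the ENZ step was larger from VCaP-CT than from VCaP-CT-BR by 1.35 ± 0.168 on the log2 scale (adjusted p = 1.05e-06). The difference between these steps was called for 49.7% of all genes tested.

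**Figure D2:**
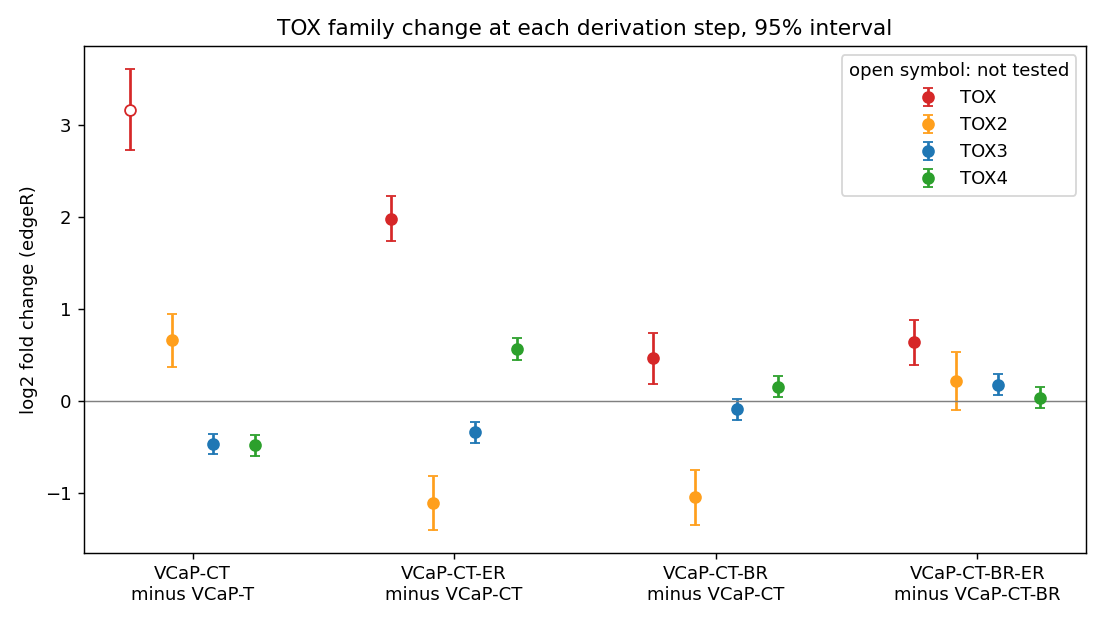
Fitted log2 fold change (y axis) of each TOX family gene at the 4 derivation steps (x axis), with its 95% interval as a bar and an open symbol where no test was made. TOX lies above 0 at every step, and TOX2 above 0 at the first step and near -1 at the steps from VCaP-CT to either antiandrogen subline.

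A divergent transcript, TOX-DT (ENSG00000167912.5), starts beside TOX on the plus strand of chromosome 8, from 59119040 to 59121346. It shares 169 exonic bases, 4.09% of those of TOX, and the counting took no account of strand, so reads in that stretch cannot be assigned to either gene. The VCaP-T libraries had 4, 22 and 16 counts of TOX-DT, and those of VCaP-CT had 79, 72 and 81. There were 188, 182 and 179 for VCaP-CT-ER, 84, 71 and 67 for VCaP-CT-BR, and 118, 91 and 95 for VCaP-CT-BR-ER. It was lowest in VCaP-T and highest in VCaP-CT-ER, as TOX was.

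The steps of TOX-DT were not tested against those of TOX. From VCaP-CT to VCaP-CT-ER its log2 fold change was 0.86 ± 0.174 (adjusted p = 0.000231). From VCaP-CT to VCaP-CT-BR it was -0.23, with a 95% interval of -0.640 to 0.171 (adjusted p = 0.329), and when VCaP-CT-BR became VCaP-CT-BR-ER it was 0.46 (adjusted p = 0.0523 in edgeR, 0.0313 in DESeq2). Per exonic length, as TPM (counts per exonic base scaled to a common sum), the level of TOX-DT was 1.97 to 2.08 times that of TOX in the VCaP-CT libraries and 0.920 to 0.948 times in the VCaP-CT-ER libraries. The ratio was 1.07 to 1.43 for VCaP-CT-BR and 1.03 to 1.18 for VCaP-CT-BR-ER, while in VCaP-T, at these few counts, it ran from 1.19 to 7.45.

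**Figure D3:**
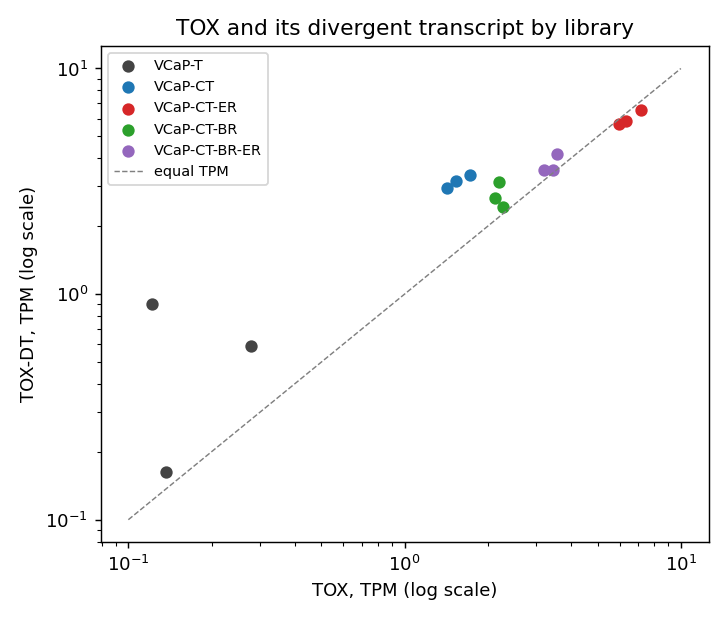
Level of TOX (x axis) and TOX-DT (y axis) in each library, in TPM on log axes, with a dashed line where both are equal. The VCaP-CT libraries lie above the line, at ratios of 1.97 to 2.08, and the VCaP-CT-ER libraries lie on or just under it.

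TOX2 lies on the plus strand of chromosome 20, from 43914864 to 44069616 (ENSG00000124191.17), with 3223 exonic bases in 13 blocks, none of them shared with another gene. It had 4.57, 4.38 and 5.79 CPM in VCaP-T and 7.37, 8.66 and 7.41 CPM in VCaP-CT. TOX2 had 3.40, 4.07 and 3.40 CPM under ENZ (VCaP-CT-ER), 3.37, 4.21 and 3.77 under bicalutamide (VCaP-CT-BR), and 5.39, 4.31 and 3.46 after both (VCaP-CT-BR-ER). All VCaP-CT libraries stood above all others, and the 3 antiandrogen sublines overlapped each other.

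TOX2 rose 1.58-fold from VCaP-T to VCaP-CT (log2 fold change 0.66 ± 0.139, adjusted p = 0.000274, 65.3% of genes called). It then fell by 1.11 ± 0.141 on the log2 scale from VCaP-CT to VCaP-CT-ER (adjusted p = 7.79e-07), by 1.05 ± 0.143 to VCaP-CT-BR (log2 fold change -1.05, adjusted p = 3.17e-06), and by 0.83 ± 0.140 between VCaP-CT and VCaP-CT-BR-ER (log2 fold change -0.83, adjusted p = 4.02e-05). The antiandrogen sublines were not told apart from each other. The log2 difference in TOX2 was -0.06 for VCaP-CT-ER against VCaP-CT-BR (95% interval -0.375 to 0.256), 0.22 for VCaP-CT-BR-ER against VCaP-CT-BR (-0.095 to 0.532) and 0.28 for VCaP-CT-BR-ER against VCaP-CT-ER (-0.032 to 0.587). That last difference passed the threshold without VCaP-CT-BR-ER replicate 3 (adjusted p = 0.0315).

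Compared with VCaP-T, TOX2 was lower in VCaP-CT-ER (log2 fold change -0.44 ± 0.146, adjusted p = 0.0109, 69.0% of genes called) and in VCaP-CT-BR (-0.38 ± 0.149, adjusted p = 0.0262, 71.2% called). Both calls rested on VCaP-T replicate 3, the highest of its group, without which the adjusted p for TOX2 was 0.0948 and 0.157. The call in VCaP-CT-BR was also lost without VCaP-CT-BR replicate 1 (adjusted p = 0.0836) or replicate 3 (0.0513). In VCaP-CT-BR-ER the log2 difference of TOX2 from VCaP-T was -0.17 (95% interval -0.469 to 0.139, adjusted p = 0.322, 70.2% of genes called), and -0.36 without VCaP-CT-BR-ER replicate 1 (adjusted p = 0.0446).

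TOX3 lies on the minus strand of chromosome 16, from 52438005 to 52547802 (ENSG00000103460.16), with 5031 exonic bases in 11 blocks and none shared. Its level was 51.5, 56.6 and 52.9 CPM in VCaP-T and 37.2, 40.3 and 38.9 CPM in VCaP-CT. It was 31.0, 30.2 and 30.8 CPM for VCaP-CT-ER, 37.4, 35.0 and 37.1 for VCaP-CT-BR, and 41.5, 40.1 and 42.2 for VCaP-CT-BR-ER. The order of TOX3 was nearly the mirror of that of TOX at its ends, with VCaP-T highest and VCaP-CT-ER lowest, both without overlap with any other subline.

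All 4 later sublines had less TOX3 than VCaP-T. Their log2 fold change was -0.47 ± 0.0541 for VCaP-CT (adjusted p = 1.54e-07), -0.81 ± 0.0542 for VCaP-CT-ER (adjusted p = 2.09e-11), -0.56 ± 0.0540 for VCaP-CT-BR (adjusted p = 7.91e-09) and -0.38 ± 0.0537 for VCaP-CT-BR-ER (adjusted p = 2.16e-06). These comparisons share the VCaP-T libraries. Between later sublines, TOX3 fell by a further 0.34 ± 0.0549 on the log2 scale from VCaP-CT to VCaP-CT-ER (log2 fold change -0.34, adjusted p = 1.68e-05). When VCaP-CT-BR became VCaP-CT-BR-ER it rose by 0.18 ± 0.0544 (adjusted p = 0.0119), a call that was lost without VCaP-CT-BR replicate 2 (adjusted p = 0.0505). VCaP-CT was not told apart from either bicalutamide subline, with log2 differences in TOX3 of -0.09 for VCaP-CT-BR (95% interval -0.202 to 0.026) and 0.09 for VCaP-CT-BR-ER (-0.025 to 0.203).

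TOX4 lies on the plus strand of chromosome 14, from 21476597 to 21499175 (ENSG00000092203.13), with 7091 exonic bases in 10 blocks. Its ends overlap genes of the other strand. It shares 124 bases, 1.75%, with RAB2B, a small GTPase, and 388 bases, 5.47%, with METTL3, the catalytic subunit of the m6A RNA methyltransferase. A pseudogene on chromosome 4, TOX4P1, had 17 to 50 counts per library, against 1583 to 3437 for TOX4, and the counting could have split reads between these copies.

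The level of TOX4 was 70.1, 70.9 and 65.6 CPM in VCaP-T and 47.8, 47.9 and 52.2 CPM in VCaP-CT. It was 70.8, 71.8 and 76.5 CPM for VCaP-CT-ER, 57.8, 53.6 and 53.6 for VCaP-CT-BR, and 58.1, 56.6 and 54.6 for VCaP-CT-BR-ER. VCaP-T and VCaP-CT-ER overlapped at the top, the bicalutamide sublines overlapped in the middle, and VCaP-CT was lowest.

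TOX4 fell by 0.48 ± 0.0555 on the log2 scale from VCaP-T to VCaP-CT (log2 fold change -0.48, adjusted p = 1.45e-07) and rose by 0.57 ± 0.0552 from VCaP-CT to VCaP-CT-ER (adjusted p = 1.50e-08). Its level in VCaP-CT-ER differed from VCaP-T by 0.09 (95% interval -0.029 to 0.198, adjusted p = 0.173). The bicalutamide sublines VCaP-CT-BR and, after ENZ, VCaP-CT-BR-ER stayed below VCaP-T, with log2 fold changes of -0.32 (adjusted p = 2.11e-05) and -0.29 (adjusted p = 8.95e-05). The rise of TOX4 from VCaP-CT to VCaP-CT-BR, 0.16 (adjusted p = 0.0223), was lost without VCaP-CT replicate 1 (adjusted p = 0.0536), without VCaP-CT-BR replicate 1 (0.129) and with upper quartile scaling (0.0967). The bicalutamide sublines differed from each other by 0.04 (95% interval -0.078 to 0.152).

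The window around the RefSeq start of TOX4 also holds the start of RAB2B, which runs the other way and begins at 21476973 in the counting annotation, and so is shown here. The sequence is from RefSeq (GRCh38.p14), plus strand, chr14:21476945-21477244, 250 bases before the RefSeq start and 50 after it. The counting annotation begins TOX4 further upstream, at 21476597, so the window lies inside the gene as counted. Capitals mark matches to the GC box GGGCGG on either strand.
TOX4: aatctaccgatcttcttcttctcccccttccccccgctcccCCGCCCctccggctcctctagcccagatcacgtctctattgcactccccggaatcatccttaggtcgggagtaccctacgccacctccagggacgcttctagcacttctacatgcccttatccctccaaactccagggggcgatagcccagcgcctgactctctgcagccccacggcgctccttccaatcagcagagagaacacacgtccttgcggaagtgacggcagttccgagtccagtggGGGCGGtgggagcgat
The window is 61.3% G or C and holds 19 CG pairs, against medians of 58.7% and 14 over the 35116 RefSeq windows of this length. A GC box stands in 45% of those windows. The androgen half-site AGAACA, searched on both strands, matched 1 time here and at least once in 14.8% of all windows. Of the 2 windows of TOX2, one held the NFAT core TGGAAA, which 20.7% of all windows hold, and neither held a GC box or the androgen half-site. Such matches describe letters and not binding sites.

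RAB2B, read from the same window in the other direction, did not follow TOX4 at the first step. VCaP-T was at 21.1 ± 0.331 CPM of RAB2B, VCaP-CT at 25.9 ± 0.425, VCaP-CT-ER at 33.5 ± 2.18, VCaP-CT-BR at 25.3 ± 1.80 and VCaP-CT-BR-ER at 27.6 ± 0.684. RAB2B rose from VCaP-T to VCaP-CT (log2 fold change 0.29, adjusted p = 0.000426), where TOX4 fell, and rose from VCaP-CT to VCaP-CT-ER (0.37, adjusted p = 2.42e-05), where TOX4 rose. METTL3, at the far end, moved as RAB2B did, with log2 fold changes of 0.21 at each of these steps (adjusted p = 0.00134 and 0.00126).

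From VCaP-T to VCaP-CT the 3 tested members, TOX2, TOX3 and TOX4, were all called, 1 higher and 2 lower, against 65.3% of all genes. From VCaP-CT to VCaP-CT-ER all 4 members were called, TOX and TOX4 higher and TOX2 and TOX3 lower, against 60.9%. From VCaP-CT to VCaP-CT-BR 3 of 4 were called against 53.2%. At the ENZ step after bicalutamide 2 of 4 were called, TOX and TOX3, both higher, against 42.9%. For the mean of the later sublines against VCaP-T, TOX3 and TOX4 were lower (log2 fold change -0.55, adjusted p = 9.08e-11, and -0.25, adjusted p = 1.95e-05), and TOX2 did not pass (-0.08, adjusted p = 0.531), where 72.5% of all genes were called.

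Levels of different genes can be set side by side only per length, as TPM. In VCaP-T the mean level was 28.2 TPM for TOX3, 25.6 for TOX4, 4.04 for TOX2 and 0.179 for TOX. In VCaP-CT-ER it was 26.7 TPM for TOX4, 15.8 for TOX3, 6.49 for TOX and 2.92 for TOX2. TOX thus stood above TOX2 in that subline, and TOX4 above TOX3. In VCaP-CT-BR the mean of TOX4 was also above that of TOX3, at 19.6 and 18.3 TPM. These orders between genes were not tested.

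As a share of the summed TPM of the family, TOX made up 0.308% for VCaP-T, 3.56% for VCaP-CT, 5.09% for VCaP-CT-BR, 7.16% for VCaP-CT-BR-ER and 12.5% for VCaP-CT-ER. The share of TOX3 went from 48.5% in VCaP-T to 30.5% in VCaP-CT-ER and lay between 42.5% and 43.5% in the other sublines. The share of TOX2 was 13.7% in VCaP-CT and between 5.63% and 7.19% elsewhere. The summed level of the family was 58.1 ± 2.21 TPM in VCaP-T and between 43.1 ± 1.10 (VCaP-CT-BR) and 52.0 ± 1.32 (VCaP-CT-ER) later. It was thus highest in VCaP-T, where TOX was lowest, and among the later sublines highest in VCaP-CT-ER, where TOX was highest.

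**Figure D4:**
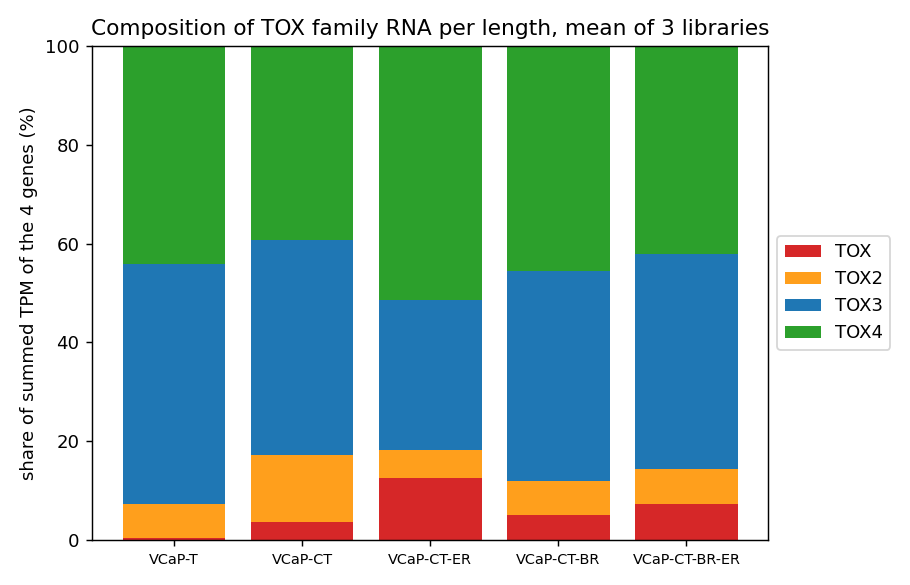
Mean share of each gene in the summed TPM of the 4 TOX family genes (y axis, percent) in each subline (x axis), over 3 libraries. The red TOX segment widens from 0.308% in VCaP-T to 12.5% in VCaP-CT-ER, and the blue TOX3 segment narrows from 48.5% to 30.5%.

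The genes whose levels were most like those of TOX over the 15 libraries were DTX3L and PTPN21 (Pearson's r 0.992 for both), NXF1 (0.991), P3H2 (0.988) and EFNB2 (0.986), out of 13051 genes compared on log2 CPM. The libraries of a subline share a derivation, so these values describe an order of 5 sublines. DTX3L, an E3 ubiquitin ligase, had mean levels of 23.2 CPM (VCaP-T) and 61.9 CPM (VCaP-CT-ER), and EFNB2, a membrane-bound ephrin ligand, 8.85 and 73.0 CPM. P3H2, a collagen prolyl hydroxylase, had the lowest start, 0.259 CPM in VCaP-T, and reached 50.7 CPM in VCaP-CT-ER. It departed from TOX at the last step, with 18.8 CPM for VCaP-CT-BR and 16.6 for VCaP-CT-BR-ER. For TOX2 the leading genes were GPRIN2 (0.935), ATP6AP1 (0.929) and KCNJ11 (0.928), for TOX3 they were EPB41 (0.983), CDH10 (0.973) and HNRNPF (0.972), and for TOX4 they were GNPNAT1, CDC42EP3 and KLF10 (0.962 each).

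Calcineurin, NFAT and NR4A genes, known from the induction of TOX in T cells, were mixed. Of 11 tested of 12, 4 were higher, 3 lower and 4 did not pass in the mean of the later sublines against VCaP-T, with a median log2 fold change of -0.02 against 0.02 over all genes. Of all genes tested there, 36.1% were called higher and 36.4% lower, also the background for the lists and neighbours that follow. PPP3CA, a catalytic subunit of calcineurin, rose (adjusted p = 1.53e-19), with VCaP-T at 86.8 ± 2.06 CPM, VCaP-CT at 295 ± 16.8, VCaP-CT-ER at 504 ± 39.1, VCaP-CT-BR at 435 ± 18.9 and VCaP-CT-BR-ER at 379 ± 3.72. Its highest subline was that of TOX, but unlike TOX it was lower in VCaP-CT-BR-ER than in VCaP-CT-BR. PPP3CC, another catalytic subunit of calcineurin, went the other way, from 10.9 ± 0.302 CPM in VCaP-T to means of 4.38 to 7.65 CPM later. NR4A2, an orphan nuclear receptor, rose (adjusted p = 2.73e-18) from 1.01 ± 0.166 CPM in VCaP-T, and its highest level was 42.9 ± 1.05 CPM, in VCaP-CT-BR-ER. NFATC4 and NR4A1 were lower in the later sublines, with log2 fold changes of -1.42 and -0.60 (adjusted p = 2.90e-14 and 1.64e-06). NFATC2 was highest in VCaP-CT-ER, at 3.83 ± 0.107 CPM, with VCaP-T at 1.78 ± 0.487 and VCaP-CT at 0.92 ± 0.11.

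The HBO1 acetyltransferase complex, which TOX binds in T cells, had all 10 genes tested, with 6 higher, 1 lower and 3 not passed in the same contrast, and a median of 0.17. JADE3 and BRPF1, both scaffold subunits, rose by 0.96 and 0.57 on the log2 scale (adjusted p = 4.58e-13 and 8.70e-09). KAT7, the acetyltransferase itself, had a log2 difference of -0.04 (95% interval -0.120 to 0.039).

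The PTW/PP1 complex of TOX4 had 4 of 5 genes tested, with 1 higher and 3 lower and a median of -0.28. PPP1CB and PPP1CA, catalytic subunits of protein phosphatase 1, were lower (log2 fold change -0.71 and -0.44, adjusted p = 4.96e-12 and 1.75e-09). Their levels were 308 ± 5.17 and 377 ± 19.1 CPM in VCaP-T, against 177 ± 10.5 and 236 ± 8.04 CPM for VCaP-CT-ER. PPP1CC was higher by 0.23 and WDR82 lower (log2 fold change -0.12) in that contrast. The later sublines were not alike for WDR82. VCaP-CT-ER, at 192 ± 8.11 CPM, stood above VCaP-T, at 170 ± 4.07, and the other later sublines had means of 140 to 155. PPP1R10, which encodes the scaffold that TOX4 binds, was listed at 0 in all libraries, as were 127 of the 167 symbols within 1 Mb of it, TUBB among them, so its 0 is not read as a level.

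TOX3 cofactors and luminal factors had 6 of 7 genes tested, 4 higher, 1 lower and 1 not passed, with a median of 0.34. CREBBP, CREB1 and EP300, coactivators or partners of TOX3 in calcium-dependent transcription, and FOXA1, a pioneer factor of luminal cells, were higher by 0.34 to 0.43 on the log2 scale, while TOX3 was lower. FOXA1 had 489 ± 14.5 CPM in VCaP-T and 628 ± 18.5 to 679 ± 37.1 CPM later. GATA3 had 18 to 29 counts in the VCaP-T libraries and 0 to 6 in the later ones, so it passed the filter on low counts through VCaP-T alone.

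Other HMG-box genes gave 15 higher, 11 lower and 9 not passed of 35 tested, with a median of -0.01. HMGB2, an abundant chromatin protein of dividing cells, rose (adjusted p = 8.58e-18), with VCaP-T at 131 ± 6.59 CPM, VCaP-CT at 278 ± 21.9, VCaP-CT-ER at 485 ± 23.6, VCaP-CT-BR at 591 ± 28.5 and VCaP-CT-BR-ER at 544 ± 19.6. SOX30 passed the filter on low counts through VCaP-CT and VCaP-CT-BR, with 28 to 47 and 58 to 71 counts per library. It had at most 1 count in VCaP-T, 3 in VCaP-CT-ER and 10 after both inhibitors. It was thus high in the later sublines that had the least TOX.

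Genes beside the members were looked at as positional context, without those that overlap them. Of 23 genes within 1 Mb of TOX, 7 were tested in the mean of the later sublines against VCaP-T, and 2 were higher, 1 lower and 4 not passed. NSMAF, the nearest at 145.6 kb on the low-coordinate side, was higher by 0.32 (adjusted p = 3.36e-06), and no tested gene lay on the other side. FAM110B, 601.1 kb away and named after its values were seen, was at 63.7 CPM for VCaP-T, 92.2 for VCaP-CT, 98.1 for VCaP-CT-BR, 121 for VCaP-CT-BR-ER and 243 for VCaP-CT-ER, the same order of means as TOX. From VCaP-CT to VCaP-CT-BR, where TOX rose, FAM110B did not pass (log2 fold change 0.09, adjusted p = 0.181). SDCBP, between them at 222.6 kb, went the other way, at 118 CPM for VCaP-T and 55.9 for VCaP-CT-ER (adjusted p = 2.14e-10 for the later sublines).

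Near TOX2, 24 of 57 genes were tested, with 10 higher and 10 lower. Its nearest tested neighbours, MYBL2 at 198.4 kb on the low side and OSER1 at 126.9 kb on the high side, were higher by 1.09 and 0.44 on the log2 scale (adjusted p = 2.45e-14 and 3.43e-07). Near TOX3, 13 of 42 were tested, with 9 higher and 1 lower. The nearest were ENSG00000279427 at 0.5 kb, with a log2 difference of -0.45 (adjusted p = 0.0546), and LINC03064 at 59.5 kb, with 0.79 (adjusted p = 0.0967). Near TOX4, 19 of 170 were tested, with 9 higher and 4 lower, and its nearest, CHD8 at 20.5 kb and SALL2 at 21.9 kb, were higher by 0.38 and 0.85 (adjusted p = 2.29e-08 and 3.28e-10). TOX3 and TOX4 themselves were lower in that contrast.

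**Figure D5:**
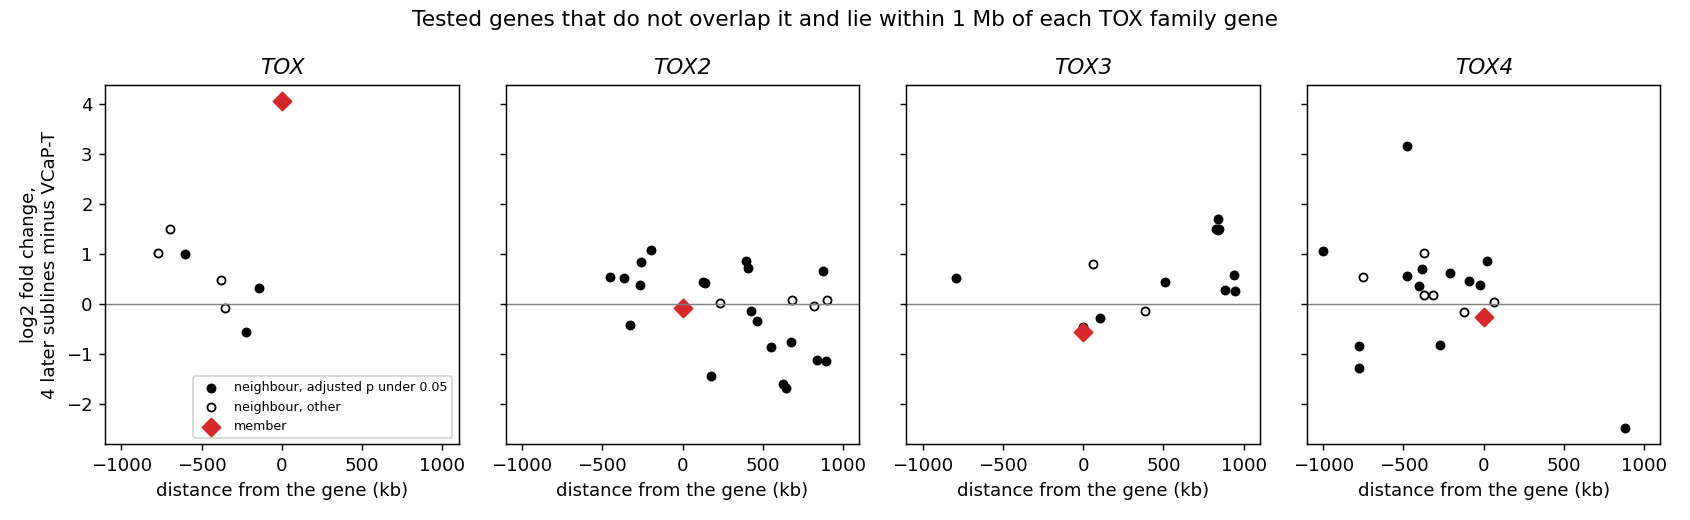
Log2 fold change of the 4 later sublines against VCaP-T (y axis) by distance from each TOX family gene in kb (x axis, negative towards lower coordinates), for the tested genes within 1 Mb that do not overlap it, filled where the adjusted p passed 0.05. The member itself (red) stands at 4.06 for TOX, above all its neighbours, and at -0.55 for TOX3, below all of its neighbours.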

How the data were processed

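Per the labels and the study's methods, the authors aligned paired reads to GRCh38 with STAR 2.5.4b, counted them with featureCounts 1.6.2 on GENCODE release 28 without regard to strand, and deposited raw counts per gene for 15 libraries. Symbols were matched by Ensembl identifier (98.9%). Counts were tested with edgeR 4.0.16 in R 4.3.3 (19621 genes kept by filterByExpr with min.count 10, TMM scaling, all 15 libraries in a model with the subline as its factor, two-sided quasi-likelihood test, Benjamini-Hochberg, threshold 0.05), over 12 contrasts. The biological coefficient of variation was 0.0609. CPM are TMM-scaled, and TPM use the exonic lengths in the files. The fit recovered known changes on simulated data in which few genes changed, all of them well counted. That simulation does not cover scaling where most genes change, or counts as low as those of TOX in VCaP-T.

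The members and gene lists were chosen with earlier results of these data known. Named genes were the members, genes that overlap them, the 5 (TOX) or 3 (others) most correlated genes among those averaging 1 or more in log2 CPM, the 2 largest changes past the threshold per list, the nearest tested neighbour on each side, and cell type markers. Other genes were named after their values were seen. Alternatives were DESeq2 1.42.0, upper quartile and RLE scaling, CPM by library total only, no or a stricter count filter, fits of 2 sublines, leaving out each library, and the replicate block. No libraries agreed within sampling noise. The other experiments of the study were not used here. Precision rests on the spread between the 3 libraries of a subline, which exceeded sampling noise at totals of 33665716 to 46935279 counts. No interval here covers more than that spread. Figures were drawn with matplotlib 3.10.9.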

Additional observations from a re-analysis of the deposited data

Results flagged for a closer look

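The log2 change along the ENZ step from VCaP-CT and the one from VCaP-CT-BR differed for all 4 TOX family genes by edgeR's test of the difference itself, which was called for 49.7% of all genes. The difference was 1.348 for TOX (adjusted p = 1.05e-06), which rose along both steps and more from VCaP-CT. It was 0.529 for TOX4 (adjusted p = 9.51e-06), which rose from VCaP-CT and did not pass the test from VCaP-CT-BR. The difference was -1.323 for TOX2 (adjusted p = 1.86e-05), which fell from VCaP-CT and did not pass the test from VCaP-CT-BR. For TOX3 it was -0.517 (adjusted p = 1.11e-05), with a fall from VCaP-CT and a rise from VCaP-CT-BR. Each background is a single derivation, so prior bicalutamide and the derivation cannot be told apart.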

How the results depend on the processing

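Apart from the values below, the changes of the members and the counts kept their direction and their side of the threshold under the alternatives run. With upper quartile scaling the change of TOX4 from VCaP-CT to VCaP-CT-BR was 0.115 and no longer passed. With at least 10 counts in every library, 1 in place of 3 TOX3 cofactors and luminal factors was called from VCaP-CT to VCaP-CT-ER, because fewer genes were tested, and TOX itself could not be tested. Scaling by library total only moved TOX3 in VCaP-CT-ER from 30.6 to 31.35 CPM. TOX-DT passed between VCaP-CT-BR and its ENZ-resistant descendant under 4 alternatives (adjusted p from 0.0172 to 0.0498) and with any of 5 single libraries left out. The causes were not tested except where given.

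With each library left out in turn, the log2 change of TOX2 against VCaP-T ran from -0.542 to -0.307 in VCaP-CT-ER, from -0.481 to -0.26 in VCaP-CT-BR, from -0.355 to -0.029 in VCaP-CT-BR-ER and from -0.159 to 0.046 for the mean of the later sublines, the last positive without VCaP-T replicate 3. For TOX2 it ran from 0.089 to 0.415 for VCaP-CT-BR-ER minus VCaP-CT-ER, and from -0.143 to 0.037 for VCaP-CT-ER against VCaP-CT-BR, positive without VCaP-CT-ER replicate 1 (0.006) or VCaP-CT-BR replicate 2 (0.037). TOX4 from VCaP-CT to VCaP-CT-BR ran from 0.115 to 0.192, and TOX3 at the ENZ step after bicalutamide from 0.155 to 0.209. The tested changes of TOX among later sublines passed in all of these fits.

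Libraries with the same replicate number did not deviate together (mean correlation -0.006, and 0.003 for different numbers, with 4 of 15 libraries correlating best with their own number). With the replicate block, the log2 change of TOX from VCaP-CT to VCaP-CT-ER was 1.99 (adjusted p = 4.76e-11 in edgeR), and no call of a member changed.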
